A study of Mus musculus with 12 samples.

Results

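*Dao* encodes D-amino acid oxidase, and its row was 1 of the 14244 genes measured in gut epithelial cells of 5 WT and 7 *Chd8L*+/- mice. The row was found by its symbol and was chosen because its level was known to differ between the genotypes, so that difference is given here as a description with no test. All mice were 8-week-old male C57BL/6 littermates, bred from *Chd8L*+/- fathers and WT mothers. *Chd8L*+/- mice carry a germline heterozygous deletion in the large isoform of *Chd8*, a chromatin remodeler, so every cell of the animal, and not the gut alone, is heterozygous. Epithelial cells were shaken off intestinal sections with EDTA and DTT, and poly(A) RNA was sequenced with a library for each mouse. The gut segment is not given in the sources used here.

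D-amino acid oxidase is a peroxisomal flavoenzyme. It uses FAD to oxidize neutral and basic D-amino acids to imino acids, which become keto acids and ammonia, and it passes the electrons to oxygen to make hydrogen peroxide. Bacteria build D-amino acids into their cell walls and release them, and in the small intestine the enzyme, made by epithelial cells of the villi and released into the lumen, is known for breaking down these microbial products and for shaping mucosal defence. It is also abundant in the kidney.

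In the GENCODE annotation of GRCm38, *Dao* (ENSMUSG00000042096.15) lies on the plus strand of chromosome 5, from 114003703 to 114025682. Its 5 annotated transcripts, 4 of them coding, together cover 2952 bases of exon, and 0 other annotated genes overlap it.

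Values below are normalized counts, that is reads on a gene divided by the size factor of the library. Libraries held between 15691662 and 20761315 reads on genes. WT replicate 2 stood apart from the other WT libraries: on the first principal component, which held 39.7% of the variance, it was at 41.0 while the other WT libraries were between -67.5 and -26.2 and the *Chd8L*+/- libraries between 0.26 and 42.7. For genes given a limma adjusted p below, its value without this library is added where it falls on the other side of 0.05. As this library lay among the *Chd8L*+/- libraries, leaving it out can narrow the WT spread and widen the contrast. Adjusted p without it are thus likely too favourable and serve only to show dependence on this library. Markers of the labelled cell type were present, as all 25 enterocyte markers and 24 of 25 goblet markers passed the filter of a mean of at least 10. *Chd8* itself was at 953 ± 85.5 (SD, n = 5) in WT and at 1297 ± 123 (SD, n = 7) in *Chd8L*+/- mice. This value counts reads over the whole gene, deleted part included, so it does not check the allele. WT replicate 2 read 1050 on *Chd8*, against 823 to 1002 in the other WT libraries and 1084 to 1483 in *Chd8L*+/- libraries, and its label was kept as given.

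*Dao* was lower in *Chd8L*+/- mice, at 49.3% of the WT mean. The WT libraries read 463, 294, 448, 483 and 471 in the order of replicates 1 to 5. The *Chd8L*+/- libraries read 167, 218, 174, 284, 160, 182 and 305 in the order of replicates 1 to 7. Of the WT libraries, 4 lay close together between 448 and 483, and replicate 2 lay far under them. Of the *Chd8L*+/- libraries, 5 lay between 160 and 218, and replicates 4 and 7 were higher and close to WT replicate 2.

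**Figure D1:**
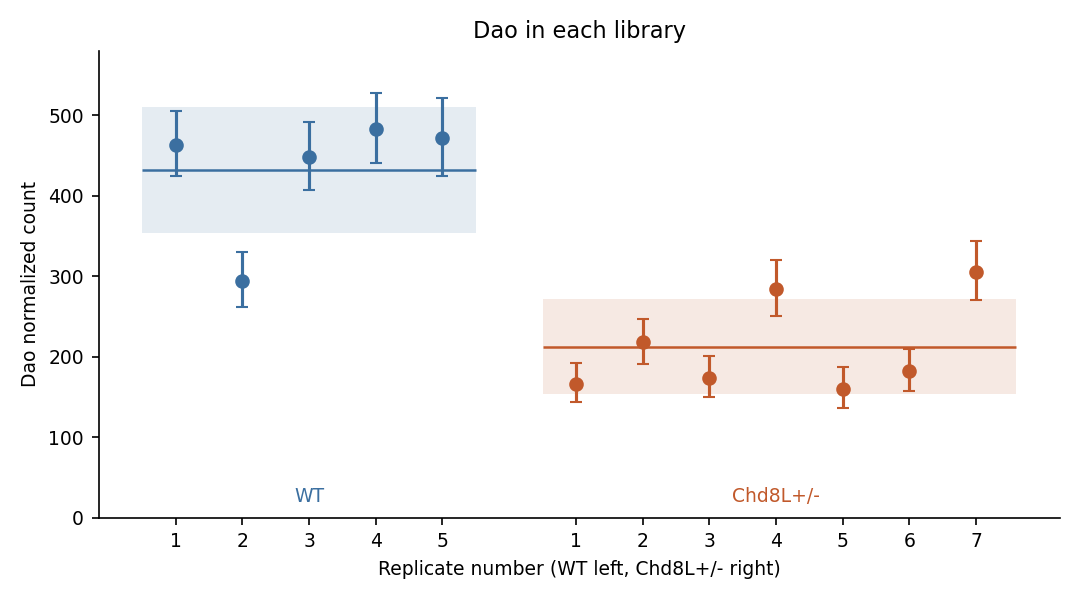
Normalized count of *Dao* (y axis) in each library (x axis), with WT in blue and *Chd8L*+/- in orange. Bars on points are exact 95% Poisson intervals of the reads, lines are group means and bands are ± 1 SD. All 7 *Chd8L*+/- libraries lie under the 4 WT libraries between 448 and 483, while WT replicate 2, at 294, lies among the *Chd8L*+/- libraries.

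WT libraries had a mean of 432 ± 78.0 (SD, n = 5) and *Chd8L*+/- libraries of 213 ± 59.1 (SD, n = 7), a log2 fold change of -1.04 with an SE of 0.19. The groups overlapped by a single pair of libraries, since *Chd8L*+/- replicate 7, at 305, was above WT replicate 2, at 294. Of the 7 *Chd8L*+/- libraries, 6 were below all WT libraries, and 1.52% of the 12808 genes that passed the filter had 6 or 7 libraries so placed. All 7 were below the other 4 WT libraries, a placement held by 7.71% of the genes, whereas 0.273% had all 7 below all 5 WT libraries. As the row was chosen on this contrast, nothing is read from these shares. *Dao* ranked 320 of the 12808 genes from the lowest log2 fold change, and the median log2 fold change of all genes was 0.01.

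Without WT replicate 2 the WT mean was 466 ± 14.9 (SD, n = 4), and the log2 fold change was -1.17 with an SE of 0.18. The spread in WT came mostly from this library. Its value was below the other 4 WT libraries, as it was for 35% of the genes. Within *Chd8L*+/- the coefficient of variation was 27.8%, against 18.1% in WT with all 5 libraries.

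The reads on *Dao* ranged from 153 in *Chd8L*+/- replicate 5 to 521 in WT replicate 1, so that counting error was between 4.38% and 8.08% of the value. The exact 95% Poisson interval of WT replicate 2 was 261 to 330 and that of *Chd8L*+/- replicate 7 was 270 to 343, which overlap almost fully. The interval of the lowest of the other WT libraries, replicate 3, was 407 to 491, above both. These intervals cover counting error only. Scaled by the total reads of the library (RPM) instead of the size factor, *Dao* was at 22.4 ± 3.07 (SD, n = 5) in WT and at 11.9 ± 2.59 (SD, n = 7) in *Chd8L*+/- mice.

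*Dao* was a gene of moderate level in these cells. Its normalized count per kilobase of exon was 146 in WT and 72.1 in *Chd8L*+/- mice, and the WT value stood at percentile 66.2 of the 12651 genes with an annotated length. Its scatter within genotypes was ordinary. The pooled SD within genotypes was 0.35 on the log2 scale, at percentile 50.3 of all genes. In bulk RNA such as this, fewer cells that make a transcript and less transcript per cell cannot be told apart.

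The 4 tested chromosomal neighbours of *Dao* had log2 fold changes between -0.30 and 0.55. The 5 protein-coding genes within 100 kb that are in the table are *Coro1c*, *Ssh1*, *Svop*, *Usp30* and *Alkbh2*, and 0 of the 4 tested passed in limma, edgeR or DESeq2, or at an unadjusted p of 0.05 in limma. Over all genes these shares were 0.0234%, 0.039%, 6.29% and 24.3% in the same order, so 0 of 4 says little about this stretch. *Ssh1*, a phosphatase that activates cofilin and the nearest gene tested, lies 9809 bases away on the minus strand. It was at 369 ± 80.0 in WT (SD, n = 5) and at 304 ± 86.6 in *Chd8L*+/- mice (SD, n = 7), a log2 fold change of -0.30 (limma adjusted p = 0.38). *Coro1c*, an actin-binding coronin, and *Usp30*, a mitochondrial deubiquitinase, had log2 fold changes of -0.11 and -0.13 (limma adjusted p = 0.72 and 0.57). *Alkbh2*, a DNA repair enzyme, was on average higher, with a log2 fold change of 0.55 (limma adjusted p = 0.30). *Svop*, on the opposite strand, lies 1228 bases beyond the end of *Dao*. It had a mean of 4.24 in WT and of 2.02 in *Chd8L*+/- libraries, under the filter, and was not tested.

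The level of *Dao* was next set beside the genes around the enzyme. In limma with all 12 libraries, 3 of 12808 genes passed at an adjusted p of 0.05 (0.0234%), all 3 lower in *Chd8L*+/- mice. Without WT replicate 2, 27.6% of genes passed, 13.6% as lower and 14% as higher. That share is likely too high, for the reason given above, and at most 8 genes passed with any other library left out. On the recovered reads, 6.29% passed with DESeq2, 4.49% as lower and 1.8% as higher, and 0.039% with edgeR, all as lower. In each of the 5 pathway lists and in the enterocyte and goblet lists, edgeR called 0 genes. At an unadjusted p of 0.05 in limma, 11.8% of genes were lower and 12.5% higher. The 5 lists below are read against these shares, and *Dao* is left out of all of them.

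The genes that make, carry or break down D-amino acids showed no common direction. Of 8 such genes in the table, 7 were tested: 2 had lower and 5 higher means on the log2 scale, and the median log2 fold change was 0.05. Of the 7, 0 were called by limma, and at its unadjusted p of 0.05 1 was lower and 1 higher. DESeq2 called 1 lower, and limma without WT replicate 2 called 1 lower and 1 higher.

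Of the enzymes of D-amino acid turnover, *Ddo*, D-aspartate oxidase and the closest relative of *Dao*, was nearly silent. It was between 0.86 and 8.89 in all 12 libraries, with a mean of 6.04 in WT and 4.92 in *Chd8L*+/- libraries, and was not tested. Per kilobase of exon its WT level was 0.68, against 146 for *Dao*, so nearly all transcripts of these 2 oxidases came from *Dao*. *Srr*, the racemase that makes D-serine, read 404, 262, 501, 429 and 370 in WT and 420, 440, 324, 331, 240, 306 and 400 in *Chd8L*+/- libraries. Its groups overlapped across nearly their whole range, with a log2 fold change of -0.16 (limma adjusted p = 0.62). *Dglucy*, which acts on D-glutamate, was at 1135 ± 132 in WT (SD, n = 5) and 1209 ± 325 in *Chd8L*+/- mice (SD, n = 7), a log2 fold change of 0.05 (limma adjusted p = 0.88).

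The lowest and highest log2 fold changes of this list were those of *Slc1a4* and *Dtd1*, neither of which passed over 12 libraries in limma. *Slc1a4*, a carrier of serine and other neutral amino acids that also takes D-serine, read 220, 185, 413, 698 and 322 in WT. In *Chd8L*+/- libraries it read 195, 163, 78.4, 239, 117, 246 and 85.4, so that 4 of the 7 were below all WT libraries. Its log2 fold change was -1.15 (SE 0.36, limma adjusted p = 0.12), and without WT replicate 2 the limma adjusted p was 0.017. *Dtd1*, which removes D-amino acids from mischarged tRNA, read 47.1, 105, 43.4, 30.7 and 36.4 in WT and 70.8, 57.8, 96.2, 83.8, 72.3, 106 and 96.5 in *Chd8L*+/- libraries. All 7 *Chd8L*+/- values of *Dtd1* were above the 4 WT libraries other than replicate 2, as for 6.69% of all genes, and replicate 2 lay within the *Chd8L*+/- range. The log2 fold change of *Dtd1* was 0.77 (SE 0.27, limma adjusted p = 0.13), and 0.0051 was the limma adjusted p without that library. Its relative *Dtd2* was at 201 and 205 on average, a log2 fold change of 0.01 (limma adjusted p = 0.98).

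*Slc1a5*, an exchanger of glutamine and other neutral amino acids, was at 913 ± 191 in WT (SD, n = 5) and at 1185 ± 435 in *Chd8L*+/- mice (SD, n = 7), a log2 fold change of 0.32 (limma adjusted p = 0.40). *Slc6a14*, a broad importer of neutral and basic amino acids, varied more than 10-fold within each group, from 11.6 to 578 in WT and from 26.8 to 1216 in *Chd8L*+/- libraries, with a log2 fold change of 0.73 and an SE of 1.04 (limma adjusted p = 0.69). *Slc7a10* and *Slc38a5* were not analysed here.

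**Figure D2:**
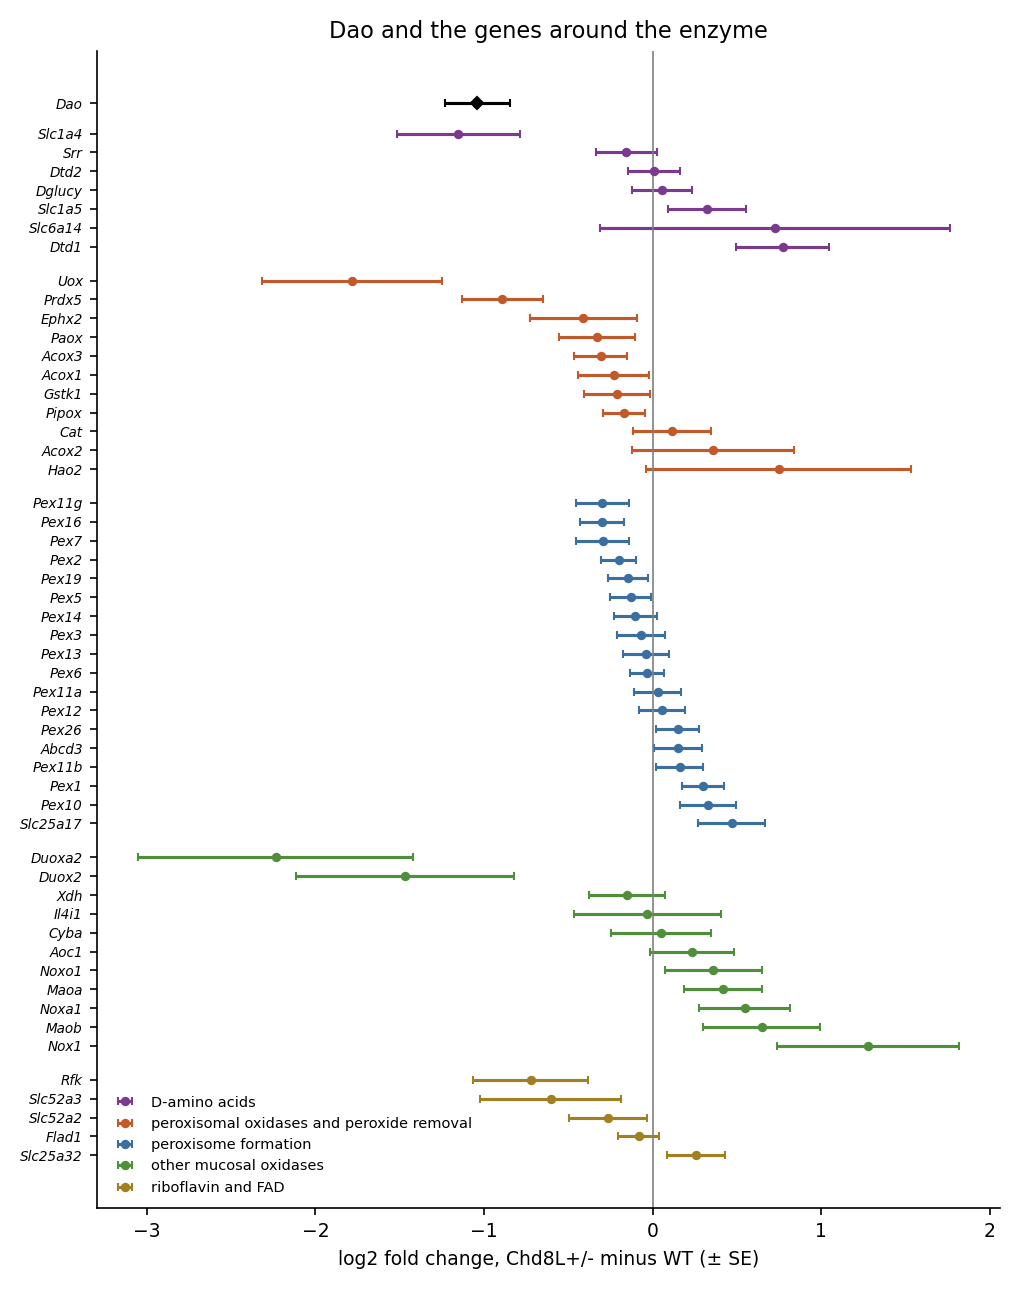
Log2 fold change of *Chd8L*+/- against WT (x axis, points, bars are ± 1 SE) for *Dao* and for each tested gene of 5 lists (y axis, colours). *Dao*, at -1.04, lies below 10 of the 11 peroxisomal oxidase and peroxide genes and below all 18 genes of peroxisome formation, which lie between -0.30 and 0.47. As *Dao* was chosen for its fold change, its place is a description.

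Enzymes that share the peroxisome with *Dao* had both lower and higher means. Of 11 peroxisomal oxidases and peroxide-removing enzymes, 8 had lower and 3 higher means, where 6219 of the other 12807 genes tested had lower means. The median log2 fold change of the 11 was -0.23, or -0.38 when WT replicate 2 was left out. Limma over 12 libraries called 0 of the 11, and at its unadjusted p of 0.05 2 were lower and 0 higher. Limma without WT replicate 2 called 3 lower, and DESeq2 called 2 lower. *Uox*, urate oxidase, had the lowest log2 fold change, -1.78 (SE 0.53, limma adjusted p = 0.12, or 0.014 without WT replicate 2). It was at 26.2 ± 14.6 in WT (SD, n = 5) and at 7.35 ± 5.0 in *Chd8L*+/- mice (SD, n = 7), levels close to the filter. *Prdx5*, a peroxiredoxin that removes hydrogen peroxide, read 9244, 4361, 13713, 10741 and 11858 in WT and 5193, 5785, 4285, 5466, 3804, 4890 and 6184 in *Chd8L*+/- libraries. As for *Dao*, all 7 *Chd8L*+/- values of *Prdx5* were below the 4 other WT libraries, a placement held by 7.71% of all genes. WT replicate 2 lay among the *Chd8L*+/- values, and it was below the other 4 WT libraries for 35% of genes. The log2 fold change of *Prdx5* was -0.89 (SE 0.24, limma adjusted p = 0.12), and the adjusted p was 0.0026 in limma without WT replicate 2 and 0.0057 in DESeq2.

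At the other end of this list, *Hao2*, which oxidizes 2-hydroxy acids, had a log2 fold change of 0.75 with an SE of 0.79 (limma adjusted p = 0.58). *Acox2*, which acts on bile acid intermediates, was at 110 ± 28.4 in WT (SD, n = 5) and at 173 ± 112 in *Chd8L*+/- mice (SD, n = 7), a log2 fold change of 0.36 (limma adjusted p = 0.67). *Cat*, the catalase that breaks down the hydrogen peroxide made by *Dao* and its neighbours in the organelle, was at 3374 ± 590 in WT (SD, n = 5) and at 3819 ± 1346 in *Chd8L*+/- mice (SD, n = 7). Its log2 fold change was 0.12 (limma adjusted p = 0.78).

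The 18 genes that build peroxisomes had log2 fold changes between -0.30 and 0.47. All were tested, 10 with lower and 8 with higher means, and the median log2 fold change was -0.04, or -0.07 when WT replicate 2 was left out and 0.02 when WT replicate 5 was. Limma and DESeq2 each called 0 of them, 1 was lower and 2 higher at an unadjusted p of 0.05 in limma, and 2 were called lower and 2 higher when WT replicate 2 was left out. *Pex11g*, which acts in peroxisome division, and *Pex16*, which acts in membrane assembly, each had a log2 fold change of -0.30 (limma adjusted p = 0.25 and 0.18, or 0.045 and 0.0077 without WT replicate 2). *Slc25a17*, a peroxisomal carrier of FAD and coenzyme A, was at 242 ± 89.1 in WT (SD, n = 5) and 322 ± 46.1 in *Chd8L*+/- mice (SD, n = 7), a log2 fold change of 0.47 (limma adjusted p = 0.17, or 0.012 without WT replicate 2). *Pex10*, a ubiquitin ligase of protein import, had a log2 fold change of 0.33 (limma adjusted p = 0.23).

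Other oxidases of the mucosa went in both directions. Of 11, 4 had lower and 7 higher means, with a median log2 fold change of 0.23 that fell to 0.10 when WT replicate 2 was left out. Limma and DESeq2 each called 0, 2 were lower and 1 higher at an unadjusted p of 0.05 in limma, and 2 were called lower and 2 higher when WT replicate 2 was left out. *Duox2*, a hydrogen peroxide generator of the epithelial surface, and its maturation factor *Duoxa2* had log2 fold changes of -1.47 (SE 0.65, limma adjusted p = 0.19) and -2.23 (SE 0.81, limma adjusted p = 0.14). Both passed in limma without WT replicate 2 (adjusted p = 0.0056 and 0.0054). *Duox2* was at 3097 in WT replicate 2 and between 24031 and 57477 in the other WT libraries, and it ran from 3982 to 23872 in *Chd8L*+/- libraries. *Nox1*, an NADPH oxidase, had a log2 fold change of 1.28 (SE 0.54, limma adjusted p = 0.17, or 0.010 without WT replicate 2), and *Maob*, a monoamine oxidase, of 0.65 (SE 0.35, limma adjusted p = 0.26). *Aoc1* encodes diamine oxidase, an enzyme with the same abbreviation as the product of *Dao*. It was at 11993 ± 2442 in WT (SD, n = 5) and at 14558 ± 4663 in *Chd8L*+/- mice (SD, n = 7), a log2 fold change of 0.23 (limma adjusted p = 0.59).

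Of 5 genes that import riboflavin or turn it into FAD, the cofactor of the enzyme, 4 had lower means and 1 higher, and the median log2 fold change was -0.27. This median was -0.48 when WT replicate 2 was left out, -0.15 when WT replicate 3 was, and -0.14 after quantile normalization. Limma called 0 of them, also at an unadjusted p of 0.05, and DESeq2 called 0. With WT replicate 2 left out, limma called *Rfk* and *Slc52a3* lower and *Slc25a32* higher (adjusted p = 0.0054, 0.039 and 0.045). *Rfk*, riboflavin kinase, was at 8200 in WT replicate 2, between 24680 and 40196 in the other WT libraries and between 10158 and 20736 in *Chd8L*+/- libraries. Its log2 fold change was -0.72 (SE 0.34, limma adjusted p = 0.21). The riboflavin transporter *Slc52a3* had a log2 fold change of -0.61 (limma adjusted p = 0.38), the FAD synthetase *Flad1* of -0.08 (limma adjusted p = 0.70) and the mitochondrial carrier *Slc25a32* of 0.26 (limma adjusted p = 0.36).

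Whether *Dao* followed the absorptive or the mucus-secreting cells was asked through its relation to enterocyte and goblet markers. Between genotypes both lists were lower on average. Single enterocyte markers had log2 fold changes from -1.11 to 0.54 and goblet markers from -1.90 to 0.59, so some were lower by more than *Dao*, at -1.04. As *Dao* was chosen for its fold change, a larger drop than the average of a list is no result. Of 25 enterocyte markers, 22 had lower and 3 higher means, with a median log2 fold change of -0.31, and of 24 goblet markers, 18 had lower and 6 higher means, with a median of -0.11. Leaving out WT replicate 2, these medians were -0.47 and -0.12. Limma over 12 libraries called 0 of either list. At its unadjusted p of 0.05, 5 enterocyte and 3 goblet markers were lower and 0 higher in either list. DESeq2 called 4 enterocyte and 2 goblet markers lower, and limma without WT replicate 2 called 5 and 2.

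The mean of the log2 values of the enterocyte list was 14.0 in WT replicate 2, between 14.8 and 15.0 in the other WT libraries, and between 13.7 and 14.8 in *Chd8L*+/- libraries. The goblet mean was 10.3 in WT replicate 2, between 9.69 and 10.8 in the other WT libraries, and between 9.56 and 10.5 in *Chd8L*+/- libraries. WT replicate 2 was thus low for enterocyte markers, as it was for *Dao*, and within the range of the other WT libraries for goblet markers.

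**Figure D3:**
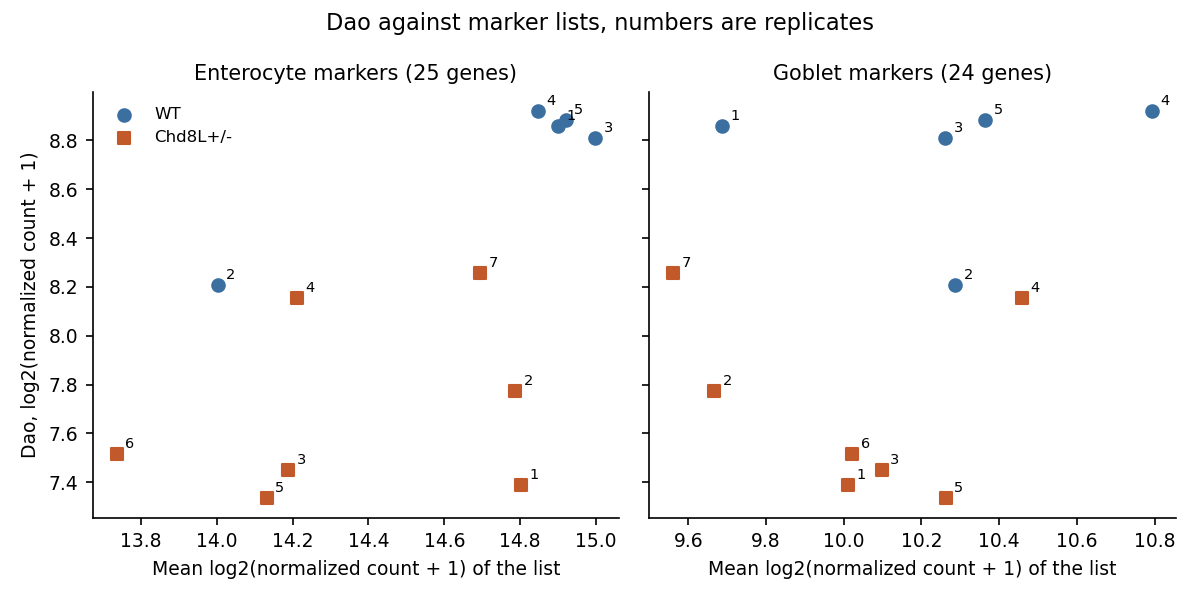
Log2 normalized count of *Dao* (y axis) against the mean log2 normalized count of 25 enterocyte markers (left, x axis) and 24 goblet markers (right, x axis), with a point for each of the 5 WT (blue circles) and 7 *Chd8L*+/- (orange squares) libraries, numbered by replicate. WT replicate 2 is low on both axes at left, at 14.0 for the enterocyte mean, and *Chd8L*+/- replicate 1 has a high enterocyte mean of 14.8 with a low *Dao* of 7.39.

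Since the genotype difference chose *Dao*, the relation was tested on the variation within genotypes, after subtracting the mean of each genotype from both measures. *Dao* and the enterocyte mean had a Pearson r of 0.52 and a Spearman rho of 0.39 (n = 12, two-sided exact permutation within genotypes, p = 0.11 and 0.24). Adjusted over the 21 lists tested in this way, the permutation p was 0.39 for r and 0.56 for rho. Without the 2 libraries farthest from the median enterocyte mean, WT replicate 2 and *Chd8L*+/- replicate 6, r was 0.17. The size of r thus depended on which libraries were kept, and leaving out the farthest narrows the range, which can itself lower r. Leaving out WT replicate 2 alone gave an r of 0.27, leaving out *Chd8L*+/- replicate 6 alone gave 0.51, and leaving out *Chd8L*+/- replicate 1 alone gave 0.71 (exact permutation p = 0.025, not adjusted), the only library whose omission took the p under 0.05. Among the 7 *Chd8L*+/- libraries r was 0.28 and rho 0.21 (exact permutation p = 0.52 and 0.66). There, leaving out replicates 1 and 2, the farthest on the enterocyte mean, gave an r of 0.67.

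*Dao* and the goblet mean had a Pearson r of -0.13 and a Spearman rho of -0.03 (n = 12, two-sided exact permutation within genotypes, p = 0.69 and 0.92). Adjusted over the 21 lists, the permutation p was 0.89 for r and 0.94 for rho. Without WT replicate 4 and *Chd8L*+/- replicate 7, the farthest on the goblet mean, r was 0.02. Among the 7 *Chd8L*+/- libraries r was -0.27 and rho -0.36 (exact permutation p = 0.55 and 0.44), and without replicates 4 and 7 it was -0.94 over the 5 left. No relation with goblet markers was thus detectable within genotypes with these libraries. The relation with enterocyte markers missed the threshold too. Whether the relations with the enterocyte and goblet lists differed was not tested. Values of *Dao* and of a list in the same library share its size factor.

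Single markers spread widely around these list values, and their r is a description over 12 libraries with genotype means subtracted. Of 25 enterocyte markers, 22 had a positive r with *Dao*, with a median of 0.37. Over the other 12807 genes, 6652 had a positive r and the median was 0.02. Among the 7 *Chd8L*+/- libraries alone, where WT replicate 2 has no part, 15 of the 25 markers had a positive r. Their median there was 0.14, against 0.01 over all genes, of which 6491 had a positive r. The markers most like *Dao* were *Prap1*, a secreted epithelial protein (r = 0.87), *Cbr1*, a carbonyl reductase (r = 0.84), and *Apoc3*, an apolipoprotein of lipid export (r = 0.79). *Prap1* read 15669, 7118, 19840, 15298 and 18388 in WT and 6802, 7551, 5043, 11210, 6187, 8925 and 12116 in *Chd8L*+/- libraries. It shared with *Dao* the low WT replicate 2 and the high *Chd8L*+/- replicates 4 and 7. The markers least like *Dao* were *Enpep*, aminopeptidase A (r = -0.31), *Anpep*, aminopeptidase N (r = -0.24), and *Mgam*, maltase-glucoamylase (r = -0.09). *Enpep* was on average higher in *Chd8L*+/- mice, with a log2 fold change of 0.54 (limma adjusted p = 0.34).

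Of 24 goblet markers, 10 had a positive r with *Dao*, with a median of -0.05. The highest were *Tff3*, a trefoil peptide of mucus (r = 0.35), *Spink4*, a secreted protease inhibitor (r = 0.17), and *Capn9*, a calpain (r = 0.13). The lowest were *Fcgbp*, a mucus protein (r = -0.45), *Slc12a8*, a membrane transporter (r = -0.33), and *Creb3l1*, a transcription factor of secretory cells (r = -0.29). The highest r of a goblet marker was thus below those of the 3 leading enterocyte markers.

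The widest view was over all 21 lists with at least 3 tested genes. Within genotypes *Dao* had its highest Pearson r with markers of the proximal small intestine (r = 0.66, rho = 0.63, n = 12, exact permutation within genotypes, p = 0.035 and 0.044) and with peroxisomal oxidases and peroxide-removing enzymes (r = 0.65, rho = 0.63, exact permutation p = 0.044 and 0.045). After adjustment over 21 lists the permutation p was 0.37 for r and 0.47 for rho in both, so neither passed. Villus top markers had an r of 0.63 (exact permutation p = 0.052, adjusted 0.37). Among the 7 *Chd8L*+/- libraries the proximal list had an r of 0.83 (exact permutation p = 0.028, adjusted 0.59). Without *Chd8L*+/- replicates 3 and 5, the farthest on the list mean, its r was 0.54 over 10 libraries and 0.79 over the 5 *Chd8L*+/- libraries left. The proximal list had an r of 0.75 without WT replicate 2. All 10 of its genes had a positive r, from 0.11 to 0.73, and 3 of them (*Fabp1*, *Rbp2* and *Lct*) are also in the enterocyte list. The peroxisomal list had an r of 0.54 without *Chd8L*+/- replicates 3 and 5, its farthest, and 10 of its 11 genes had a positive r, with *Prdx5* highest at 0.73. Of the other 12807 genes, 6652 had a positive r, and genes of a list can vary together over the same libraries. Distal small intestine markers had an r of 0.05 (exact permutation p = 0.90), and 4 of 8 had a positive r.

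Lists at the negative end were stem cell (r = -0.49), myeloid (r = -0.44), Paneth (r = -0.40) and villus bottom markers (r = -0.33), with exact permutation p between 0.11 and 0.29 and adjusted p of 0.39 to 0.55. Leaving out WT replicate 2 gave stem cell, myeloid and villus bottom markers an r of -0.26, -0.12 and -0.03, and Paneth markers -0.44. None of the 21 lists passed the adjusted threshold.

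**Figure D4:**
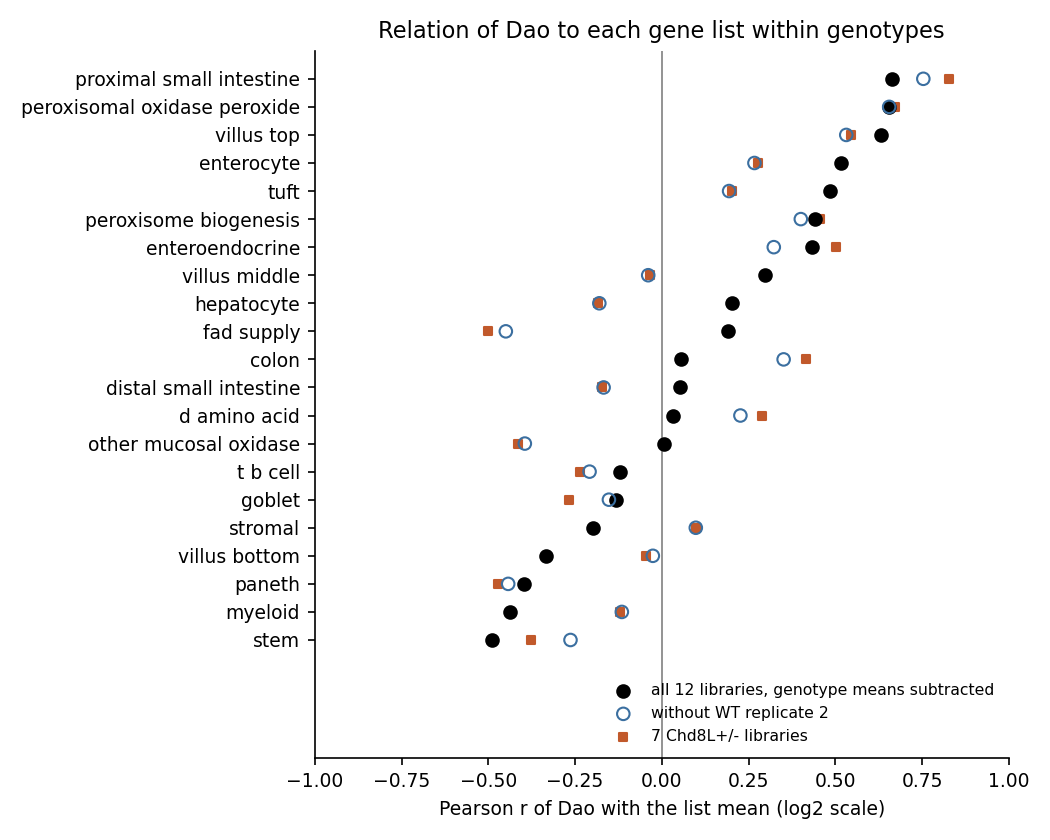
Pearson r of *Dao* with the mean log2 normalized count of each of 21 gene lists (y axis), over 12 libraries with genotype means subtracted (black), without WT replicate 2 (blue rings) and over the 7 *Chd8L*+/- libraries (orange squares). Proximal small intestine, at 0.66, is highest and stem cell, at -0.49, lowest, and no list passed after adjustment over the 21.

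*Dao* was also set against the mean of a list in the same library. The *Dao* value minus the enterocyte mean, on the log2 scale, was -6.00 ± 0.15 in WT (SD, n = 5) and -6.67 ± 0.47 in *Chd8L*+/- mice (SD, n = 7). WT libraries lay between -6.19 and -5.80, WT replicate 2 included, and 6 of 7 *Chd8L*+/- libraries were below all of them. By this measure WT replicate 2 had the highest value of the WT group. Against goblet markers the difference was -1.54 ± 0.48 in WT (SD, n = 5) and -2.32 ± 0.55 in *Chd8L*+/- mice (SD, n = 7), and 5 of 7 were below all WT libraries. Against proximal markers it was -2.49 ± 0.36 (SD, n = 5) and -3.36 ± 0.24 (SD, n = 7), and against genes of peroxisome formation -0.12 ± 0.28 (SD, n = 5) and -1.16 ± 0.35 (SD, n = 7). Against these last lists all 7 *Chd8L*+/- libraries were below all 5 WT libraries. The mean of the list of peroxisome formation differed by 0.0008 between the genotypes, so that difference restates the fold change of *Dao*. The share of all genes placed in these ways was not computed. These differences contain the contrast that chose *Dao* and are a description, and nothing is read from the counts of libraries.

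**Figure D5:**
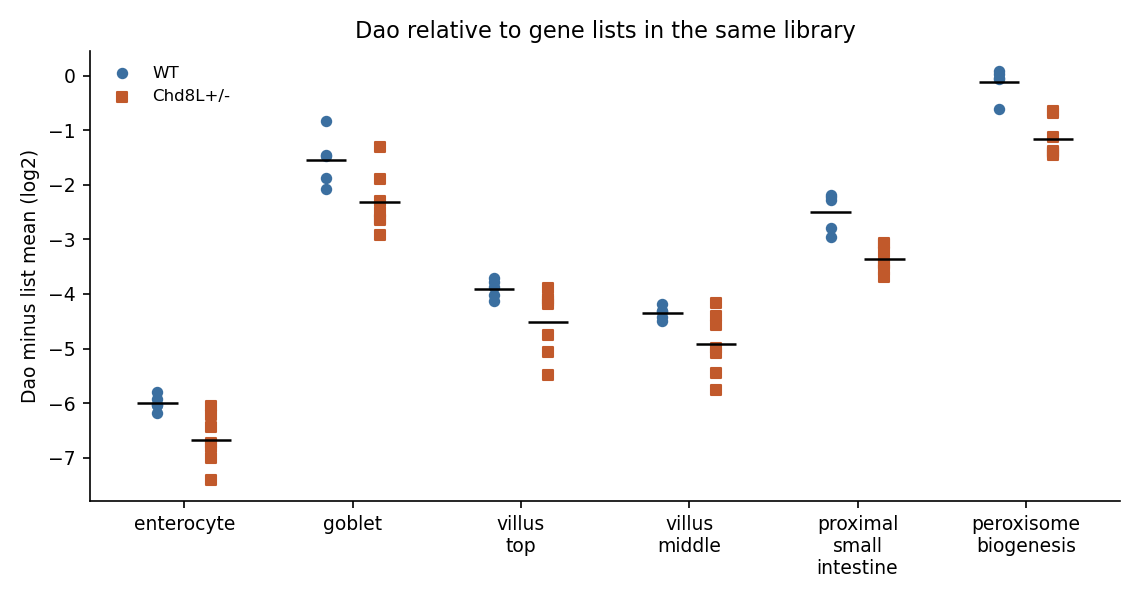
Log2 normalized count of *Dao* minus the mean of 6 gene lists in the same library (y axis), with a point for each WT (blue circles) and *Chd8L*+/- (orange squares) library and black lines for group means. Against the proximal small intestine and peroxisome biogenesis lists all 7 *Chd8L*+/- libraries lie below all 5 WT libraries. Against villus top markers 4 of 7 do. As *Dao* was chosen on this contrast, these placements are a description.

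Markers of other cells had means that differed between the genotypes, and their part in the level of *Dao* was not tested. Over the other 12807 genes tested, 6219 had lower and 6588 higher means. At an unadjusted p of 0.05 in limma, 11.8% of all genes were lower and 12.5% higher, and counts near these shares say little. Stem cell markers had higher means in 12 of 13 genes, with 1 lower and 3 higher at an unadjusted p of 0.05 in limma. T and B cell markers had lower means in 10 of 11 genes, with 1 lower and 0 higher at that threshold. In the tuft, villus bottom, myeloid and stromal lists below, limma over 12 libraries and edgeR called 0 genes. At an unadjusted p of 0.05 in limma, 20 tuft markers were lower, and 5 villus bottom, 4 myeloid and 4 stromal markers were higher. DESeq2 called 17 tuft markers lower and 2, 1 and 1 of the other lists higher, and limma with WT replicate 2 left out called 19 lower and 5, 5 and 3 higher. Of all genes, DESeq2 called 4.49% lower and 1.8% higher, and limma without that library 13.6% and 14%. Tuft cell markers had lower means in 20 of 20 genes, with a list mean between 9.14 and 10.4 in the 4 WT libraries other than replicate 2, 7.26 in that library, and between 6.35 and 9.05 in *Chd8L*+/- libraries. Villus bottom markers had higher means in 7 of 8 genes, with a list mean of 10.4 to 12.05 in those 4 WT libraries, 12.97 in replicate 2 and 11.8 to 13.7 in *Chd8L*+/- libraries. Myeloid markers had higher means in 10 of 10 genes, from 5.05 to 5.45, at 6.67 and from 5.73 to 7.16 in the same order, and stromal markers in 8 of 8, from 2.86 to 3.88, at 6.02 and from 3.69 to 8.08. Of 6 markers of the kidney tubule, a tissue rich in *Dao*, 1 was in the table, *Slc34a1*, with a mean of 5.12 in WT and 7.38 in *Chd8L*+/- libraries.

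The genes whose pattern was most like that of *Dao* were sought over all 12808 tested genes, as a description with no test. Over all 12 libraries, where the genotype difference adds to the likeness, the highest Pearson r were those of *Scamp1*, a carrier membrane protein of secretory vesicles (r = 0.95), *Snx20*, a sorting nexin (0.95), *Rnf11*, a ubiquitin ligase adaptor (0.94), *Abcc5*, an exporter of organic anions (0.94), *Tbpl1*, a relative of the TATA-binding protein (0.93), and *Higd1a*, a protein of the inner mitochondrial membrane (0.92). *Snx20* was at 570 in WT replicate 2, at 734 or more in the other WT libraries and between 359 and 567 in *Chd8L*+/- libraries. *Abcc5* was at 198 in WT replicate 2, at 261 or more in the other WT libraries and between 106 and 200 in *Chd8L*+/- libraries. The low WT replicate 2 was thus shared by these genes, which follows from how they were picked. Over all genes, 35% had WT replicate 2 below the other 4 WT libraries.

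With genotype means subtracted, the highest r were those of *A930001C03Rik* (0.88), *Prap1* (0.87), *Scamp1* (0.86), *Tnfrsf23*, a decoy receptor for TRAIL (0.86), *Khk*, ketohexokinase, the first enzyme of fructose breakdown (0.86), and *Zrsr1*, a splicing factor (0.85). *Scamp1* and no other gene was among the 6 highest by both measures. *Khk* read 7157, 5170, 6821, 7566 and 8371 in WT and 4507, 5518, 4317, 5038, 4051, 5135 and 7074 in *Chd8L*+/- libraries, with *Chd8L*+/- replicate 7 highest of its group as for *Dao*. Without WT replicate 2 the 6 genes kept an r between 0.80 and 0.83.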

How the data were processed

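Gut epithelial cell RNA of 5 WT and 7 *Chd8L*+/- mice was measured with a library per mouse. The authors mapped 75-base single-end reads to mm10 with Tophat2 and used the DESeq2 pipeline (the tool and build are also in the submitters' processing notes). Deposited signal values are counts the authors scaled by dividing each library by its own size factor. Which program counted the reads, on which annotation and whether by strand is not given in the sources used here. The table has 14244 rows, all 12 columns are samples of the series, and 0 belong to others.

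Every column moved in steps of a single read's value, and dividing by the step recovered reads for 100% of values (within 0.01 of a whole number). Genes with a mean of at least 10 (12808) were tested on log2(value + 1) with limma 3.58.1 in R 4.3.3 (trend, Benjamini-Hochberg), and fold changes are on that scale, which understates those of low genes. On the reads, edgeR 4.0.16 (quasi-likelihood, TMM) and DESeq2 1.42.0 were alternatives. As the table held no whole counts, the count test written for that case was not the main test. No batch is given in the labels; the letter that opens each library name was tried as a block. Other alternatives were the pseudocount (0.5 or 5), no filter, 10 in every library, quantile normalization, the replicate number as a block and each library left out in turn. The steps were tested on simulated data.

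Each replicate is a mouse, and the paper calls the mice littermates without saying which shared a litter. Library names also hold a number, which for some recurs in both genotypes. Its meaning is not given and it was not tried as a block. *Dao* and the gene lists were chosen with earlier results of these data known. Named genes are *Dao*, *Chd8*, the D-amino acid list, the 2 highest and 2 lowest by log2 fold change of each other pathway list, the 3 highest and 3 lowest by r with *Dao* of the enterocyte and goblet lists, the 6 genes most like *Dao* by either r, and genes within 100 kb. *Cat* and *Aoc1* were added, and *Fabp1*, *Rbp2*, *Lct* and *Slc34a1* were named, after values were seen. Permutation tests of r enumerated all orders of libraries within genotypes. Positions and lengths come from GENCODE on GRCm38, the build that mm10 names, which need not be the authors' annotation.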

Additional observations from a re-analysis of the deposited data

Results flagged for a closer look

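In groups of 5 or 7 libraries, the lowest or highest library was compared with its nearest neighbour by the gap over the range of the group. Of 68 groups tested, 9 were marked, where chance would mark about 3.4, and 6 of the 9 were values of WT replicate 2. *Dao* in WT was marked for replicate 2, at 8.21 on the log2 scale against 8.81 for the next. Also low in WT replicate 2 were the enterocyte list mean (14.0), the villus middle list mean (12.4), the villus top list mean (11.9) and the hepatocyte list mean (5.83), and high in it was the myeloid list mean (6.67). The peroxisome biogenesis list mean was high in WT replicate 5, at 8.94 against 8.85 for the next. *Alkbh2*, a neighbour of *Dao*, was low in *Chd8L*+/- replicate 2, at 4.09 against 5.07 for the next. The distal small intestine list mean was low in *Chd8L*+/- replicate 6, at 7.04 against 9.75 for the next.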

How the results depend on the processing

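The log2 fold change of *Dao* was lower in *Chd8L*+/- mice under all 21 alternatives, between -1.17 (without WT replicate 2) and -0.98 (without *Chd8L*+/- replicate 5). The number of genes called over the whole table, 3, was 5 with edgeR, 805 with DESeq2, 451 with the library letter as a block and 0 with the replicate block. It ranged from 0 to 3534 when each library was left out, with 3534 without WT replicate 2 and at most 8 (without *Chd8L*+/- replicate 6) otherwise. The median of the D-amino acid list, 0.05, was -0.10 with the replicate block and -0.12 with the letter block, and ranged from -0.040 to 0.15 with a library left out. That of the peroxisome biogenesis list ranged from -0.071 to 0.020. Calls in the D-amino acid list were 0 to 2 with a library left out and 1 with DESeq2, those in the peroxisomal oxidase list 0 to 3 and 2 with DESeq2, those among other mucosal oxidases 0 to 4 and 1 with the letter block, those in peroxisome biogenesis 0 to 4 and those in FAD supply 0 to 3. The r of *Dao* with the enterocyte mean ranged from 0.27 to 0.71 with a library left out, and was 0.62 over the 12 libraries pooled, where the genotype difference enters. It was 0.67 with the replicate block and 0.62 after quantile normalization (exact permutation p = 0.055, not adjusted). The r with the goblet mean ranged from -0.41 to 0.15 (positive without *Chd8L*+/- replicate 7), was 0.26 pooled, -0.84 with the replicate block and -0.28 after quantile normalization. The causes were not tested. No pairing of the mice was seen by shared replicate number: same-numbered libraries had deviations correlated between -0.34 and 0.19, and number 1 alone matched its own best. This check cannot show which mice shared a litter. With 5 and 7 libraries, only strong relations could have passed, and 5 WT libraries were too few for an r of their own.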
